A study of Mus musculus with 8 samples.

Results

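The GATOR complexes and the sestrins form the branch that carries amino acid supply to the Rag GTPases, and their 10 genes were followed here in mouse liver. The genes were *Nprl2*, *Nprl3* and *Depdc5* (GATOR1), *Mios*, *Wdr24*, *Wdr59*, *Seh1l* and *Sec13* (GATOR2), and *Sesn1* and *Sesn2* (sestrins). They were taken by name from a table of 14506 genes, and all 10 were found and passed the filter on low values. None of the 10 differed between *Rragc* S74N/+ and *Rragc* +/+ livers at an adjusted p under 0.05, and the ranges of the groups overlapped for each of them. The lowest value of *p* before adjustment belonged to *Mios*, with means of 78.8 in *Rragc* +/+ and 49.0 in *Rragc* S74N/+ livers. *Sec13* and *Nprl3* varied most between livers, and their high livers were found in both genotypes.

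GATOR1 is a GTPase-activating complex that turns RagA or RagB to the GDP-bound form when amino acids are scarce, which releases the kinase complex mTORC1 from the lysosome. GATOR2 opposes GATOR1. Sestrins bind GATOR2 when leucine is low and thereby keep mTORC1 off, and the KICSTOR complex anchors GATOR1 at the lysosome. RagC is the partner of RagA or RagB in the heterodimer on which GATOR1 acts.

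Livers came from 8 mice, 4 *Rragc* S74N/+ and 4 *Rragc* +/+. The S74N substitution is a constitutive knock-in on 1 allele, made by genome editing with silent changes beside it, so every cell of the animal carries it, and the livers were taken whole. The *Rragc* +/+ mice were 3 months old (replicates 1 to 3) and 2.5 months old (replicate 4), and the *Rragc* S74N/+ mice were 3 months (replicates 1 and 2), 2.5 months (replicate 3) and 2 months old (replicate 4). Values are normalized read counts from libraries of the 3′ end of messenger RNA, in which reads follow transcript copies and not length. In such bulk samples, fewer cells of a type and less RNA per cell cannot be told apart.

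Each liver held 4313076 (*Rragc* +/+ replicate 3) to 6632108 (*Rragc* S74N/+ replicate 4) reads in listed genes. The hepatocyte markers *Alb*, *Apoa1*, *Ttr*, *Serpina1a*, *Cps1* and *Tat* were detected in every liver, with a summed level of 234507 to 329319 in *Rragc* +/+ and 253638 to 430652 in *Rragc* S74N/+ livers. *Rragc* itself (chr4:123917446-123936997, GRCm38, forward strand) reached 84.1 ± 20.4 (SD, n = 4) in *Rragc* +/+ and 76.6 ± 7.32 in *Rragc* S74N/+ livers, with a log2 difference of -0.11 (SE 0.25). Tags at the 3′ end do not read the edited exon 1, so this level does not check the genotype.

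In GATOR1, *Nprl2* (chr9:107542226-107545706, forward strand, GRCm38 as for all positions) encodes the subunit that supplies the catalytic arginine of the complex. Among *Rragc* +/+ livers its normalized count was 103, 61.7, 39.6 and 81.3 (replicates 1 to 4, the order kept for every gene), and among *Rragc* S74N/+ livers it was 54.2, 47.1, 53.5 and 71.0. The *Rragc* S74N/+ livers lay inside the range of the *Rragc* +/+ livers, which held both the highest and the lowest value. Means were 71.5 ± 27.3 and 56.4 ± 10.2 (SD, n = 4), a log2 difference of -0.27 (SE 0.32; *Rragc* S74N/+ minus *Rragc* +/+ here and for every gene), and the adjusted p was 0.869 in limma.

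*Nprl3* (chr11:32225628-32267707, reverse strand) encodes the partner of Nprl2. It was counted at 13.1, 9.35, 35.4 and 14 in the *Rragc* +/+ livers and at 56.0, 14.2, 11.1 and 17.1 in the *Rragc* S74N/+ livers. A liver of each genotype stood high, *Rragc* +/+ replicate 3 and *Rragc* S74N/+ replicate 1, and the other 6 lay between 9.35 and 17.1. The log2 difference was 0.32 (SE 0.56), with an adjusted p of 0.910 in limma, and it turned to -0.17 without *Rragc* S74N/+ replicate 1.

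The introns of *Nprl3* are known to hold enhancers of the neighbouring alpha-globin genes. *Hba-a1* lay 15803 bases and *Hba-a2* 28781 bases from its annotated span. In the livers in which *Nprl3* was high, *Hba-a1* was at 1176 (*Rragc* +/+ replicate 3) and 1703 (*Rragc* S74N/+ replicate 1), within its range over all livers of 863 to 2340. *Hba-a2* was at 3494 and 3287, the latter being the lowest of its values. Neither liver was the highest for an alpha-globin gene. A link between the levels of *Nprl3* and of the alpha-globin genes was not tested.

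*Depdc5* (chr5:32863701-32994236, forward strand) encodes the third GATOR1 subunit, which binds the Rag heterodimer. Its values were 39.2, 29.9, 36.8 and 22.4 in *Rragc* +/+ livers and 23.9, 23.1, 26.7 and 17.9 in *Rragc* S74N/+ livers. The 3 *Rragc* +/+ livers of 3 months lay above every *Rragc* S74N/+ liver, and the *Rragc* +/+ liver of 2.5 months lay below 3 of them. Means were 32.1 ± 7.53 and 22.9 ± 3.67 (SD, n = 4), with a log2 difference of -0.45 (SE 0.34) and an adjusted p of 0.846 in limma.

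In GATOR2, *Mios* (chr6:8209222-8236274, forward strand) encodes a WD40 and RING protein of the complex core. Its normalized count was 55.0, 87.9, 97.6 and 74.7 in the *Rragc* +/+ livers and 28.5, 45.3, 90.3 and 31.8 in the *Rragc* S74N/+ livers. Replicates 1, 2 and 4 of *Rragc* S74N/+ lay below every *Rragc* +/+ liver, whereas *Rragc* S74N/+ replicate 3, of 2.5 months, was higher than all but *Rragc* +/+ replicate 3. Means were 78.8 ± 18.4 and 49.0 ± 28.5 (SD, n = 4).

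The log2 difference of *Mios* was -0.80 (SE 0.36, 95% interval -1.58 to -0.01), and the adjusted p in limma was 0.846. Before adjustment limma gave p = 0.0470, and an exact permutation test, two-sided and over the 70 ways to label the livers, gave p = 0.114, where the smallest it allows is 0.0286. *Mios* was the only member of 10 with an unadjusted p under 0.05, and 5.17% of all 11174 tested genes had such a p. The unadjusted p of *Mios* was 0.0876 in edgeR and 0.0837 in DESeq2. In the livers of 3 months alone its log2 difference was -1.09 (unadjusted p = 0.0130, adjusted p = 0.841 in limma). Those were *Rragc* +/+ replicates 1 to 3 and *Rragc* S74N/+ replicates 1 and 2. The difference lay between -1.14 and -0.59 when each liver was left out in turn. Its unadjusted p in limma then ran from 0.00285 (without *Rragc* S74N/+ replicate 3) to 0.136 (without *Rragc* S74N/+ replicate 1). *Mios* made up 32.2% ± 2.68 (SD, n = 4) of the summed GATOR2 counts in *Rragc* +/+ livers, between 30.3% and 36.2%. In *Rragc* S74N/+ livers this share was 22.2% ± 12.7, between 12.1% and 39.3%, so it spread more widely and overlapped the *Rragc* +/+ range. Such a share also depends on the other subunits. In *Rragc* S74N/+ replicates 1 and 4, where it was lowest, *Sec13* held 27.2% and 23.1% and *Wdr24* 24.1% and 20.4%.

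*Wdr24* (chr17:25823627-25828730, forward strand) encodes another RING subunit, and a long noncoding gene annotated on its strand, *Gm26694*, spans the whole of it. Reads of *Wdr24* may therefore have been ambiguous in the counting. This limit also holds for the GATOR2 sums, shares and ratio, which include *Wdr24*, and for its place in the order of levels. The values of *Wdr24* were 17.7, 45.8, 34.0 and 13.1 in *Rragc* +/+ livers and 56.9, 37.3, 16.7 and 49.8 in *Rragc* S74N/+ livers. The livers of 2.5 months, of which each genotype has 1, held the lowest values, at 13.1 and 16.7, close to the next, 17.7. With means of 27.6 ± 15.1 and 40.2 ± 17.6 (SD, n = 4), the log2 difference was 0.55 (SE 0.48) and the adjusted p was 0.848 in limma.

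*Wdr59* (chr8:111448797-111522092, reverse strand), the third RING subunit of GATOR2, was counted at 41.0, 36.5, 35.4 and 19.6 in *Rragc* +/+ livers and at 29.4, 19.6, 29.0 and 23.7 in *Rragc* S74N/+ livers. As for *Depdc5*, the 3 *Rragc* +/+ livers of 3 months were the highest, and the *Rragc* +/+ liver of 2.5 months was level with the lowest *Rragc* S74N/+ liver. The log2 difference was -0.34 (SE 0.35), with an adjusted p of 0.854 in limma.

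*Seh1l* encodes a WD40 subunit that GATOR2 shares with the Y complex of the nuclear pore. Its counts were 51.3, 58.0, 91.9 and 134 in *Rragc* +/+ livers and 56.9, 63.1, 76.9 and 82.4 in *Rragc* S74N/+ livers. All *Rragc* S74N/+ values fell inside the *Rragc* +/+ range, whose highest liver was replicate 4. The log2 difference of -0.17 (SE 0.32; adjusted p = 0.911 in limma) turned to 0.09 without that liver.

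*Sec13* (chr6:113728062-113740743, reverse strand) encodes a subunit of 3 assemblies, GATOR2, the Y complex and the COPII coat of vesicles that leave the endoplasmic reticulum. It was counted at 10.3, 15.0, 56.6 and 5.61 in the *Rragc* +/+ livers and at 64.3, 21.3, 16.7 and 56.3 in the *Rragc* S74N/+ livers. High values stood in *Rragc* +/+ replicate 3 and *Rragc* S74N/+ replicates 1 and 4, and the other 5 livers reached at most 21.3. Its highest liver was 11.5-fold above its lowest, and that lowest value rested on 6 reads.

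Means of *Sec13* were 21.9 ± 23.5 and 39.7 ± 24.1 (SD, n = 4), with a log2 difference of 1.11 (SE 0.64, 95% interval -0.28 to 2.50) and an adjusted p of 0.846 in limma. This difference had the largest size among the 10 genes and also the largest error. The exact two-sided permutation test gave p = 0.171. Without *Rragc* +/+ replicate 3 the log2 difference was 1.72, and without *Rragc* +/+ replicate 4 it was 0.68. In the livers of 3 months alone it was 0.81. The smallest adjusted p of *Sec13* over all settings and tools tried was 0.330, in limma.

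Of the sestrins, *Sesn1* (chr10:41809935-41908424, forward strand) is a target of p53. Its normalized count was 16.8, 22.4, 9.90 and 23.4 in *Rragc* +/+ livers and 19.3, 22.2, 8.92 and 26.1 in *Rragc* S74N/+ livers. Each genotype had a low liver in replicate 3, numbers that only name the livers, and the remaining 6 lay between 16.8 and 26.1. The log2 difference was 0.05 (SE 0.47; adjusted p = 0.985 in limma).

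*Sesn2* (chr4:132492032-132510501, reverse strand) encodes the sestrin best known as a leucine sensor and is a target of both p53 and ATF4. Its values were 33.6, 44.0, 36.8 and 56.1 in *Rragc* +/+ livers and 37.6, 56.0, 53.5 and 27.7 in *Rragc* S74N/+ livers. The groups overlapped over nearly their whole ranges, and the lowest value belonged to the *Rragc* S74N/+ liver of 2 months. Means of 42.6 ± 9.98 and 43.7 ± 13.4 (SD, n = 4) gave a log2 difference of 0.01 (SE 0.32; adjusted p = 0.996 in limma).

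**Figure D1:**
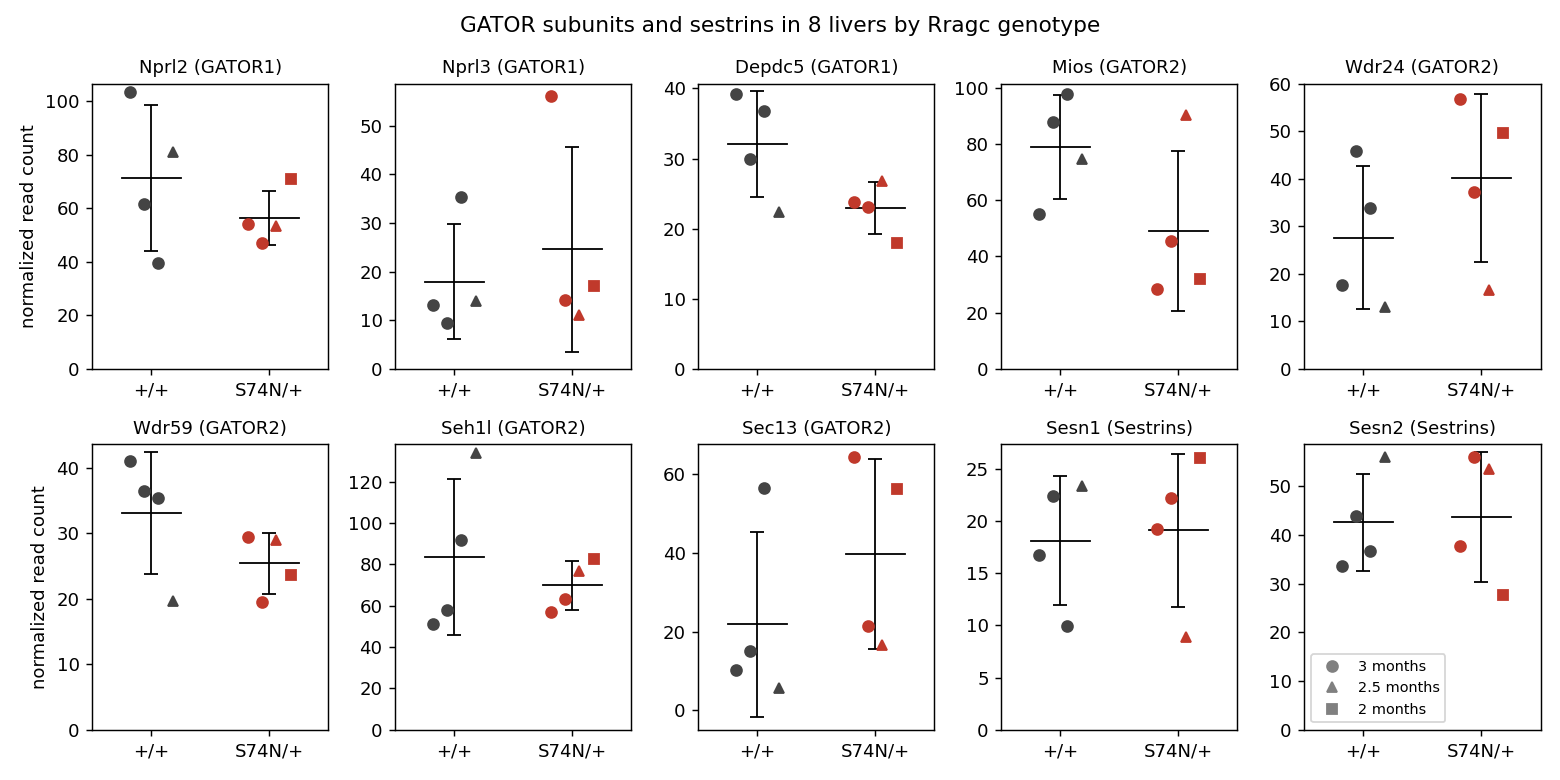
Normalized read count (vertical axis, linear) of each GATOR subunit and sestrin in 4 *Rragc* +/+ and 4 *Rragc* S74N/+ livers, with 1 symbol per liver shaped by age, a horizontal line at the mean and bars of 1 SD. The groups overlap in all 10 panels, and *Nprl3* and *Sec13* have high livers in both genotypes.

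Over all 11174 tested genes, 1 (0.00895%) passed an adjusted p of 0.05 in limma, against 0 of the 10 members, whose adjusted p lay between 0.846 and 0.996. At an unadjusted p under 0.05, limma gave 1 member, *Mios*, beside 5.17% of all tested genes. By the same cut edgeR and DESeq2 gave 0 members, against 618 and 675 of the 11174 tested genes. Groups did not overlap for 0 of the 10 members and for 2.94% of all tested genes. Of the members, 5 were higher and 5 lower in *Rragc* S74N/+ livers, with a median log2 difference of -0.08 (0.01 over all tested genes) and a median size of 0.33 (0.26 over all).

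The number of livers limited what could be seen. For *Nprl2*, *Seh1l* and *Sesn2* the 95% interval of the difference stayed within 2-fold in either direction, so that a larger change of these genes lay outside it. For the other 7 members the interval reached past 2-fold on at least 1 side, furthest for *Sec13*. An adjusted p above the threshold does not show that these levels were alike.

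**Figure D2:**
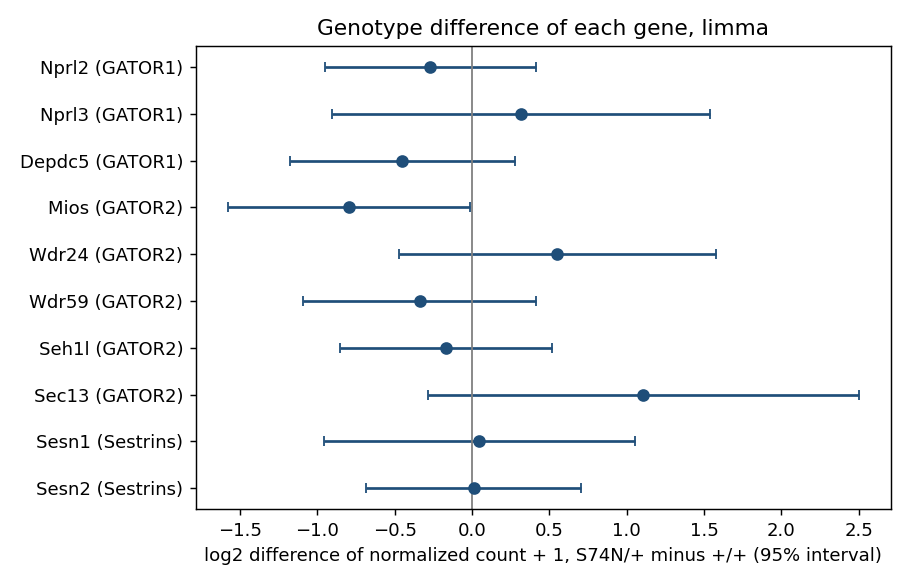
Difference of each gene between *Rragc* S74N/+ and *Rragc* +/+ livers (horizontal axis, log2 of normalized count + 1), as points with 95% intervals from limma over 8 livers. Only the interval of *Mios*, from -1.58 to -0.01, leaves out 0, before adjustment over genes, and that of *Sec13* is the widest.

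Summed over subunits, GATOR1 reached 122 ± 23.8 (SD, n = 4) normalized counts in *Rragc* +/+ and 104 ± 22.0 in *Rragc* S74N/+ livers. GATOR2 summed to 245 ± 57.3 and 224 ± 25.6, and the sestrins *Sesn1* and *Sesn2* to 60.7 ± 15.1 and 62.8 ± 10.8. Each difference was smaller than the SD of either group for GATOR1, GATOR2 and the sestrins. The ratio of GATOR2 to GATOR1 counts was 2.11 ± 0.722 in *Rragc* +/+ and 2.20 ± 0.317 in *Rragc* S74N/+ livers.

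Within GATOR1, *Nprl2* supplied the most transcripts by group mean, with 58.0% ± 15.4 (SD, n = 4) of the sum in *Rragc* +/+ and 55.4% ± 11.1 in *Rragc* S74N/+ livers. *Depdc5* supplied 26.7% ± 6.0 and 22.8% ± 6.38. The share of *Nprl3* was 15.3% ± 11 and 21.7% ± 13.5. In *Rragc* S74N/+ replicate 1 *Nprl3* supplied 41.8% and *Nprl2* 40.4%, and in *Rragc* +/+ replicate 3 the shares were 35.4% for *Nprl2*, 31.6% for *Nprl3* and 32.9% for *Depdc5*. In GATOR2, *Seh1l* held 34.1% ± 13.6 and 31.3% ± 4.79 of the sum, whereas *Sec13* held 8.05% ± 6.82 and 17.3% ± 9.43.

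By mean log2 level over the 8 livers the order was *Seh1l*, *Nprl2*, *Mios*, *Sesn2*, *Wdr24*, *Wdr59*, *Depdc5*, *Sec13*, *Nprl3* and *Sesn1*. Mean normalized counts were 76.8 for *Seh1l* at the top and 18.6 for *Sesn1* at the bottom. *Sec13* had a higher linear mean than *Depdc5* (30.8 and 27.5), since its 3 high livers weigh more there. None of the 9 neighbours in this order differed beyond the spread between livers, with adjusted p of 0.619 to 0.992 in an exact two-sided sign-flip permutation test of the paired log2 values. The smallest p before adjustment in that exact test was 0.0703, for *Mios* above *Sesn2*.

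Of the 45 pairs of members, 11 had the same order in all 8 livers. *Seh1l* exceeded *Sesn1* in every liver, by 2.00 ± 0.72 (SD, n = 8) on the log2 scale. *Sesn2* exceeded *Sesn1* in every liver, by 1.21 ± 0.70, although their ratio ran from 1.06 in the *Rragc* S74N/+ liver of 2 months to 6 in the *Rragc* S74N/+ liver of 2.5 months. The ratio of 1.06 rested on 34 reads of *Sesn2* and 32 of *Sesn1*, and that of 6 on 48 and 8 reads. *Nprl2* was above *Depdc5*, *Wdr59* and *Sesn1* in every liver, and *Mios* above *Depdc5* and *Sesn1*. With a median level of 32.3, the members were less abundant than the median tested gene (78.7), and between 6 and 143 reads stood behind each of their values.

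The spread between livers separated the members. The coefficient of variation over all livers was 78.0% for *Sec13* and 76.1% for *Nprl3*, whereas counting error alone would give 18.0% and 21.6% at these read numbers. Among all tested genes these lay at percentiles 96.4 and 96.1. *Wdr24* (48.9%) and *Mios* (42.8%) followed. At the other end were *Sesn2* with 25.4%, *Depdc5* with 26.7% and *Wdr59* with 27.3%, of which counting error would give 15.2%, 19.0% and 18.4%. The median over the members was 34.5%, and that over all tested genes was 31.7%.

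**Figure D3:**
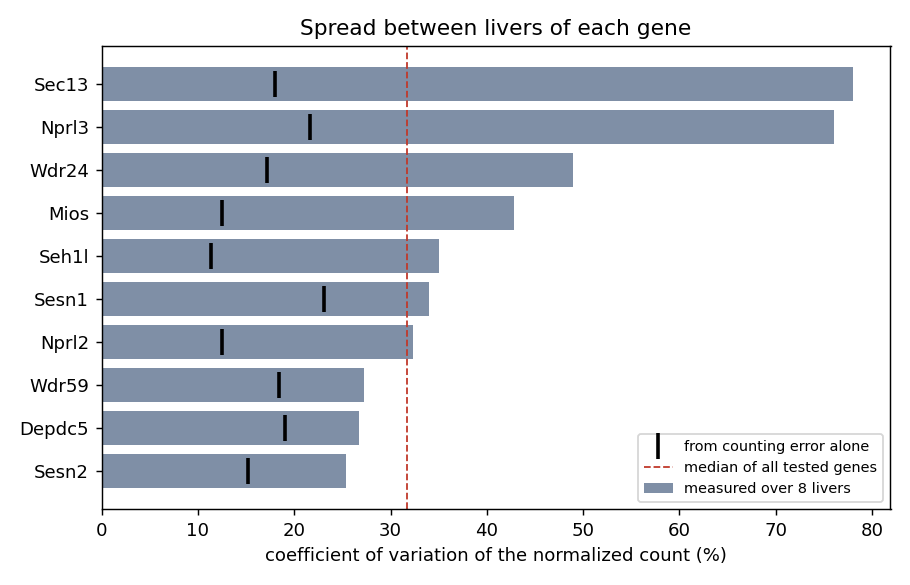
Coefficient of variation of the normalized count over 8 livers (bars, percent) for each gene, with a black mark at the value that counting error alone would give and a dashed line at the median of all tested genes, 31.7%. *Sec13* and *Nprl3* stand far to the right, and all bars extend past their marks.

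The 3 livers in which *Sec13* was highest, *Rragc* +/+ replicate 3 and *Rragc* S74N/+ replicates 1 and 4, were also the 3 with the highest *Tat* and *Cps1*. These genes, which encode tyrosine aminotransferase and the entry enzyme of the urea cycle, belong to the hepatocyte markers and were singled out after their values were seen. *Tat* stood at 284, 886 and 1520 in these livers and between 77.3 and 107 in the other 5. *Cps1* stood at 2317, 3006 and 6977 against 1024 to 1542. The other 4 hepatocyte markers did not all follow. *Alb* was at 166784, 134887 and 252840 in these livers and at 137256 in *Rragc* S74N/+ replicate 2, where *Sec13* was low. *Ttr* was at 62864, 87693 and 94658, which include its lowest and its highest value. *Apoa1* and *Serpina1a* had their lowest values in *Rragc* S74N/+ replicate 1, at 53450 and 10910. The summed level of the 6 markers was 329319, 290832 and 430652 in these livers and 234507 to 325932 in the other 5, so the ranges overlapped. Of the 6 hepatocyte markers, 4 were higher and 2 lower in *Rragc* S74N/+ livers and none passed the adjusted p. Their part in the level of *Sec13* was not tested.

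**Figure D4:**
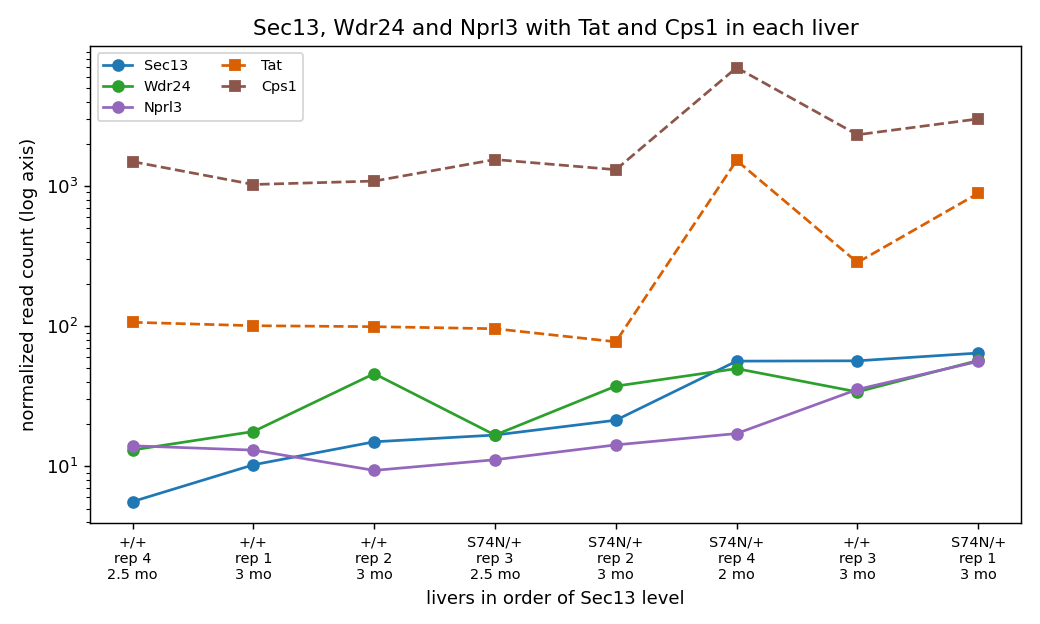
Normalized read count (log axis) of *Sec13*, *Wdr24*, *Nprl3* (circles), *Tat* and *Cps1* (squares) in each liver, with livers ordered by *Sec13* along the horizontal axis and lines that only guide the eye. The 3 livers to the right, of both genotypes, are those with the highest *Tat* (284 to 1520) and *Cps1* (2317 to 6977).

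Between members, 3 of 45 pairs (6.667%) had a Pearson r of at least 0.7 over the 8 livers, near the 5.814% of all pairs of tested genes. They were *Depdc5* with *Wdr59* (r = 0.82, rho = 0.86), *Wdr24* with *Sec13* (r = 0.79, rho = 0.71) and *Nprl3* with *Sec13* (r = 0.74, rho = 0.79). In exact two-sided permutation tests over all pairings of the livers, p for r was 0.0139, 0.0257 and 0.0312, and p for rho was 0.0107, 0.0576 and 0.0279. After adjustment over the 45 pairs these exact tests gave 0.467 for each r and 0.482, 0.648 and 0.628 for rho. Within genotypes r was 0.78, 0.75 and 0.75. Without the 2 livers farthest from the median of the first gene named in each pair, r was 0.66, 0.66 and 0.40. The livers left out differed between pairs, so these values of r cannot be set against each other. For *Nprl3* with *Sec13* they were the livers in which *Nprl3* was high, *Rragc* +/+ replicate 3 and *Rragc* S74N/+ replicate 1.

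*Sec13* and *Nprl3*, which spread most and were high together in *Rragc* +/+ replicate 3 and *Rragc* S74N/+ replicate 1, are shown by their promoters. Each window runs from 250 bases before to 50 bases after the annotated start (RefSeq, GRCm38.p6; chr6:113740632-113740931 and chr11:32267658-32267957, both reverse strand), 5′ to 3′, and capitals mark motif matches on either strand.

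Sec13: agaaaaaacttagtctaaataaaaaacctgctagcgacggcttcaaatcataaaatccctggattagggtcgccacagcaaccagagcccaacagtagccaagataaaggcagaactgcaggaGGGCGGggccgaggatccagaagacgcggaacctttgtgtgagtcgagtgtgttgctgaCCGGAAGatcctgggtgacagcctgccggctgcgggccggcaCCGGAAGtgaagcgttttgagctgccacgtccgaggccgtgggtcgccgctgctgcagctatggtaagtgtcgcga

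Nprl3: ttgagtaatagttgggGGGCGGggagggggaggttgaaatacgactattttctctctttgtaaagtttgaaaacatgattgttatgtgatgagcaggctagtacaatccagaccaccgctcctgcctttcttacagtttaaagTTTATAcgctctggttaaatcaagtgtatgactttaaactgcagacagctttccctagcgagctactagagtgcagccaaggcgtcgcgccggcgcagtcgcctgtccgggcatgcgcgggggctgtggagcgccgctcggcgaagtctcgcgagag

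Both strands were searched for CACGTG, the site of the MiT/TFE factors that mTORC1 keeps out of the nucleus. A search for TGATGNAA looked for the amino acid response site of ATF4. General promoter motifs were added, namely CCAAT, the GC box GGGCGG, the TATA box TATAAA and the ETS site CCGGAAG. *Sec13* held 1 GGGCGG and 2 CCGGAAG, and *Nprl3* held 1 GGGCGG and 1 TATAAA on its reverse strand, and no matches of different motifs overlapped in these windows. RefSeq gave 9 windows for 8 members, 2 of them for *Sesn1*. Of the 9 windows, 7 held GGGCGG (35.7% of 32851 promoters), 4 held CCAAT (37.4%), 2 held CCGGAAG (8.86%) and 1 held TATAAA (13.6%). Neither CACGTG (7.15% of all promoters) nor TGATGNAA (3.97%) was found in any of the 9, which says only that these letters are not in the windows.

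For each member, the abundant gene with the most similar profile over the 8 livers was taken from 6914 candidates. *Wdr24* was closest to *Gna11*, a G protein subunit (r = 0.99, rho = 1), and *Sec13* to *Slc12a7*, a potassium chloride cotransporter (r = 0.99, rho = 0.90). *Mios* was closest to *Nrbp1* and *Sesn1* to *Shroom1* (both r = 0.98). The closest gene to *Nprl3* was *Serpina1c*, a secreted protease inhibitor of hepatocytes (r = 0.96, rho = 0.74), and that to *Nprl2* was *Polr3gl*, a subunit of RNA polymerase III (r = 0.92). *Depdc5*, *Wdr59*, *Seh1l* and *Sesn2* were closest to *Med25* (r = 0.96), *Akap2* (r = 0.96), *Atl3* (r = 0.94) and *Dna2* (r = 0.95). Each is the highest of 6914 values of r, so they describe these 8 livers only.

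Around the GATOR complexes and sestrins, 70 further genes of the pathway and its surroundings were in the table and 62 were tested. None of the 62 passed the adjusted p in limma, edgeR or DESeq2, and 32 were higher and 30 lower in *Rragc* S74N/+ livers, with a median log2 difference of 0.02. At an unadjusted p under 0.05 limma gave 1 of the 62, *Bax*, against 5.17% of all tested genes. These lists describe the setting in which the members act and were not tested as sets.

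*Itfg2*, which encodes a subunit of the KICSTOR scaffold, had a log2 difference of -0.39. Of the other amino acid sensors, 2 of 5 were higher, and *Lars*, the leucyl-tRNA synthetase, had the largest difference, -0.28. The third sestrin gene, *Sesn3*, was more abundant than either member, with 90.4, 77.6, 112 and 158 in *Rragc* +/+ and 91.8, 85.3, 143 and 108 in *Rragc* S74N/+ livers. Its highest values stood in the livers of 2.5 months, and its log2 difference was -0.01 (SE 0.28). The arginine sensor gene *Castor1* did not pass the filter, with a mean of 1.05 and 3.46.

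Among Rag and Ragulator genes, 3 of 7 were higher, and *Rraga*, which encodes the Rag on which GATOR1 acts, had the largest log2 difference, 0.69 (33.9 ± 17.2 and 68.7 ± 58.5; SD, n = 4). In the folliculin complex, which activates the GTPase of RagC and RagD, 2 of 3 were higher, with *Flcn* at 21.7 ± 11.7 and 35.7 ± 12 (log2 difference 0.80, SE 0.46). Of mTORC1, TSC and Rheb genes 3 of 9 were higher and 6 lower, with *Mlst8* at 40.8 ± 9.95 and 26.8 ± 7.26 (log2 difference -0.60, SE 0.33). Of 3 genes for ubiquitin enzymes of this branch 2 were higher, *Rnf167* by 0.37.

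*Seh1l* and *Sec13* serve other assemblies as well. In the Y complex of the nuclear pore, 5 of 6 further listed genes tested were higher in *Rragc* S74N/+ livers. Over all tested genes, 5737 of 11174 were higher. The 6 genes had a median log2 difference of 0.50, while *Seh1l* had -0.17. The largest difference was that of *Nup98* (0.70, SE 0.37), and the SE of the 6 ran from 0.25 to 0.61. *Nup107*, *Nup37*, *Nup133* and *Nup85* had means of 13.0 to 15.6, close to the filter of 10. *Nup160* (means of 6.43 in *Rragc* +/+ and 6.87 in *Rragc* S74N/+ livers) and *Nup43* (6.32 and 1.27) did not pass the filter. *Nup133* did not overlap between groups, at 10.8 ± 1.21 and 17.4 ± 1.81 (SD, n = 4), on 8 to 21 reads per liver. Its adjusted p was 0.846 in limma. It was the only 1 of the 62 tested pathway genes without overlap, against 2.94% of all tested genes, and was named after its values were seen. In the COPII coat, 5 of 9 were higher and the largest was *Sec24c* (0.72), with a median log2 difference of 0.12 against 1.11 for *Sec13*.

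Sestrin genes are induced with other targets of p53 and ATF4. Of 9 further p53 targets 5 were higher and 4 lower, and *Btg2* had the largest log2 difference (1.0). *Bax*, which promotes apoptosis, was at 86.4 ± 30.0 and 47.5 ± 15.7 (SD, n = 4), with a log2 difference of -0.84 (SE 0.32) and an adjusted p of 0.846 in limma. *Sesn1* and *Sesn2*, at 0.05 and 0.01, lay between these extremes. Of 8 genes of the ATF4 list, with *Atf4* itself, 4 were higher and 4 lower. The largest log2 difference was that of *Chac1* (1.07, SE 0.74), which degrades glutathione, on 2 to 37 reads per liver. *Atf4* was at 1973 ± 786 and 1261 ± 252 (SD, n = 4). Its log2 difference was -0.58 (SE 0.28; adjusted p = 0.846 in limma).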

How the data were processed

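Per the labels and the study's methods, the authors sequenced 3′-end libraries of 8 livers. They aligned reads to GRCm38 with TopHat2 2.0.10, Bowtie 1.0.0 and SAMtools 0.1.19, allowing 3 mismatches and 20 hits, and counted them by strand with HTSeq 0.6.1. Scaling with DESeq gave the deposited signal, normalized read counts of each gene. All values (100%) were whole multiples of a step per liver (tolerance 1e-06), so whole reads were recovered. No molecular identifiers are stated, so counting error covers reads only.

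Genotype was tested with limma 3.58.1 (R 4.3.3; empirical Bayes with trend) on log2(normalized count + 1) for 11174 genes whose mean reached 10, adjusted by Benjamini-Hochberg at 0.05. This scale understates changes of low genes. The recovered reads were tested with edgeR 4.0.16 and with DESeq2 1.42.0. Groups came from the labels, and replicate numbers follow sample order. Nothing states litters, so p-values measure the spread between these livers. Exact permutation tests used 70 labellings. Levels were compared by sign flips over 256 patterns, and correlations over 40320 pairings.

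The members and gene lists were chosen with earlier results of these data known. All members were named. Of the pathway lists, genes with an unadjusted p under 0.05 or the largest difference were named, as were *Rragc*, *Sesn3*, *Castor1*, *Nup133* and *Atf4* (the last 4 after their values were seen), overlapping genes, and the profile with the highest Pearson r among genes with a mean of at least 50. Gene positions came from a GENCODE release for GRCm38 next to the authors' one. *Nprl3* overlaps *Mpg* on the other strand, told apart by stranded counting. *Sesn1* overlaps *9930024M15Rik*, *Sesn2* overlaps *Gm12981* and *Depdc5* overlaps *Gm24003* and *Gm43693* on their own strand, away from their 3′ ends. *Wdr59* overlaps *Mir1957b* and *Seh1l* overlaps *4930549G23Rik* on the other strand. Of the marker lists only hepatocyte genes and the alpha-globin genes beside *Nprl3* are reported, with *Alb*, *Apoa1*, *Ttr*, *Serpina1a*, *Cps1* and *Tat* named. The limma, edgeR and DESeq2 fits were tested on simulated data, and the other steps were not. Some results are not reported here.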

Additional observations from a re-analysis of the deposited data

How the results depend on the processing

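None of the 10 members passed an adjusted p of 0.05 under any of 12 other settings or 8 fits that each left out 1 liver, by limma, edgeR or DESeq2, and none of the other pathway genes did. With a mean of at least 50, only *Nprl2*, *Mios* and *Seh1l* entered. The smallest adjusted p of a member was 0.256 in limma, for *Mios* without *Rragc* S74N/+ replicate 3 (log2 difference -1.14). No neighbours in the order of levels differed with a pseudocount of 0.1 or 5 or without any 1 liver, the alternatives run for the order. *Nprl2*, *Depdc5*, *Mios*, *Wdr24*, *Wdr59* and *Sec13* kept their direction throughout, with leave-one-out ranges of -0.52 to -0.06, -0.61 to -0.34, -1.14 to -0.59, 0.26 to 0.91, -0.56 to -0.22 and 0.68 to 1.72 (log2). Without 1 liver, *Nprl3* ranged from -0.17 to 0.69 (negative without *Rragc* S74N/+ replicate 1), *Seh1l* from -0.37 to 0.088 (positive without *Rragc* +/+ replicate 4), *Sesn1* from -0.20 to 0.36 (negative without *Rragc* +/+ replicate 3 or *Rragc* S74N/+ replicate 2 or 4) and *Sesn2* from -0.12 to 0.21 (negative without *Rragc* +/+ replicate 1 or 3 or *Rragc* S74N/+ replicate 2 or 3). *Sesn1* was also at -0.11 with age as a factor, which leaves the liver of 2 months without weight, and at -0.028 with age as a number. The cause was not tested. Over all tested genes 1 was called, against 0 without the trend, 3 with age as a factor, 0 with age as a number, 0 in livers of 3 months, 10 in DESeq2, and 0 to 2 without 1 liver (2 without *Rragc* S74N/+ replicate 3). No paired analysis was possible because replicate numbers follow sample order and no label pairs the livers. Counting error alone would give a coefficient of variation of 23.1% for *Sesn1* and 21.6% for *Nprl3*, the highest of the 10 members.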
